A study of Homo sapiens with 12 samples.

Results

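The genes described here code for the proteins of the mitochondrial ribosome and are called MRP genes below. They were taken by symbol from the gene names of 6 deposited peak lists, as every name that begins with MRPL or MRPS followed by a digit. The rule found 50 genes, 30 MRPL and 20 MRPS, among 10830 gene names in the lists. GENCODE release 44 annotates 78 protein coding genes under such symbols, 49 MRPL and 29 MRPS, so 28 had no peak under that symbol in any list. The 50 genes carried 194 of 101848 peaks, and all 194 had at least 50% of their bases on exons of the gene they were named for.

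The study asked which RNAs METTL16 and the eIF3 subunits bind, by RNA immunoprecipitation sequencing (RIP-seq), in which RNA pulled down with a protein is compared with the input RNA. The 12 samples came from HepG2 cells, a line of human liver cancer in wide use, as 2 RIP samples and 2 inputs for each of the 3 proteins, with 1 peak list per RIP sample, and the study calls the replicates biological. All groups were HepG2 lines made by viral infection that overexpressed a 3XFlag-tagged protein, from pmiRNA1-3XFlag-METTL16, pSIN4-3XFlag-eIF3a or pSIN4-3XFlag-eIF3b, with no other treatment named, and the cells were UV cross-linked before lysis, so binding refers to the overexpressed state. Per the labels, METTL16 and eIF3b were pulled down with a Flag antibody and eIF3a with an antibody to eIF3a, although each deposited list carries the word flag in its name. Antibody and protein cannot be told apart for eIF3a. A peak marks RNA enriched over input and gives no RNA level, and sequencing depth is unknown from these lists. Of 9 hepatocyte marker genes 8 had a peak in at least 1 list, TTR being without one, and ALB had a peak in METTL16 replicate 2 alone, with a fold of 2.75. Among markers of blood, endothelial and macrophage cells CD3E had no peak, PTPRC had one in METTL16 replicate 1 alone, and PECAM1 and CD68 had one in 4 lists each.

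Mitochondria make a small set of respiratory chain subunits on ribosomes of their own. The RNA of these ribosomes comes from mitochondrial DNA, whereas all their proteins are encoded in the nucleus, translated in the cytosol and imported. MRPL genes code mainly for the large subunit, which forms the peptide bond, and MRPS genes mainly for the small subunit, which reads the mRNA. METTL16 is an RNA methyltransferase that places m6A on U6 small nuclear RNA and on the mRNA of MAT2A, and also acts in the cytosol. eIF3a and eIF3b are core subunits of the initiation factor that recruits mRNA to the cytosolic small ribosomal subunit.

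MRP genes had peaks of all 3 proteins, but were less often listed than other genes in 5 of the 6 lists. METTL16 replicate 1 had peaks on 20 MRP genes, 40.0% of the 50, beside 53.8% of all gene names. METTL16 replicate 2 had peaks on 36, 72.0%, beside 58.5% of all names. METTL16 replicate 2 was the only list in which the MRP share lay above that of all names.

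For eIF3a, replicate 1 had peaks on 22 MRP genes, 44% beside 75.4% of all names, and replicate 2 on 11, 22% beside 48.3%. For eIF3b, replicates 1 and 2 each had peaks on 24 MRP genes, 48.0%, beside 74.5% and 69.9% of all names. In these 4 eIF3 lists the 95% Wilson interval of the MRP share reached at most 61.5%. Its upper bound was 53.8% in METTL16 replicate 1, and its lower bound was 58.3% in METTL16 replicate 2. These intervals cover counting error over genes only. A gene entered the 50 through a peak in any of these same lists, so the intervals are no test against the share of all names. The METTL16 lists overlapped those of the other proteins in these counts, while both eIF3a lists lay below both eIF3b lists. The means were 56.0% ± 22.6 for METTL16, 33.0% ± 15.6 for eIF3a and 48.0% ± 0 for eIF3b (SD, n = 2). With 2 replicates per protein an exact two-sided permutation test cannot give a p under 0.333, so the proteins were not tested against each other. The 50 genes were those with a peak in some list. Of these 10 had one in METTL16 replicate 2 alone, 20% beside 3.8% of all names. Those 10 lower the share in every other list by the way the 50 were chosen. Over the 78 annotated MRP genes the shares were 25.6% and 47.4% for METTL16, beside 28.9% and 31.4% of protein coding genes. They were 28.2% and 14.1% for eIF3a beside 40.4% and 25.9%, and 30.8% in both eIF3b lists beside 39.9% and 37.5%. No interval was taken for these shares.

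**Figure D1:**
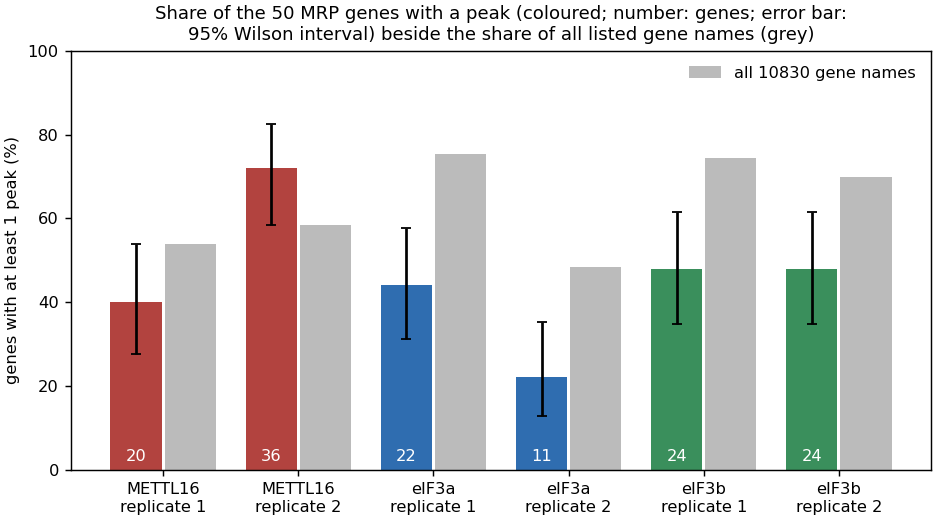
Share of the 50 MRP genes with at least 1 peak in each list (coloured bars, in percent, with the number of genes at the base and 95% Wilson intervals as error bars) beside the share of all 10830 gene names (grey bars). The MRP share is below the grey bar in every list except METTL16 replicate 2, where 36 of 50 genes had a peak.

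MRP transcripts are short, and in the length class that held most of them their share with a peak was not below that of other genes in any list. The canonical transcripts of the 78 annotated MRP genes had a median length of 1242 bases, against 2885 bases over 20033 protein coding genes and 3473 bases over protein coding genes with a peak in any list. In the shortest of 4 length classes, up to 1695 bases, lay 55 of the 78. Of these 55, METTL16 replicate 2 had peaks on 29, 52.7%, beside 20.3% of all protein coding genes in that class. METTL16 replicate 1 had peaks on 15, 27.3% beside 14.7%, eIF3a on 10 and 5, 18.2% and 9.09% beside 17.3% and 5.47%, and eIF3b on 15 and 11, 27.3% and 20% beside 19.7% and 15.2%. The eIF3a replicate 1 share was thus close to its background. Longer MRP genes were few and did not all follow. Of the 12 in the next class METTL16 replicates had peaks on 16.7% and 25% beside 27.0% and 31.7%, and of the 8 in the class after it eIF3a replicates had peaks on 37.5% and 12.5% beside 49.9% and 33.1% and eIF3b replicate 1 on 37.5% beside 48.1%. The background here includes genes that HepG2 cells may not express, and expression was not measured in the lists used. These counts include MRPL58, which codes for a peptidyl-tRNA hydrolase built into the large subunit and which appears in METTL16 replicate 2 under its older symbol ICT1, with a fold of 2.55.

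Genes with a peak in both replicates of a protein are called bound by it. METTL16 bound 17 MRP genes, 34.0% beside 42.6% of all names. eIF3a bound 8, 16% beside 42.4%, and eIF3b bound 19, 38% beside 60.0%. These shares lay below those of all names, but over the 78 annotated genes and within classes of transcript length the differences turned to 6.09, 0.61 and 5.66 percentage points above other protein coding genes for METTL16, eIF3a and eIF3b. The replicates decide these counts. Leaving out METTL16 replicate 1 would raise 17 to 36, and leaving out eIF3a replicate 2 would raise 8 to 22, whereas the eIF3b count became 24 without either replicate. Both METTL16 and eIF3b bound 12 MRP genes, 24% beside 36.4% of all names. eIF3a and eIF3b bound 7 in common, 14% beside 36.8%, and METTL16 and eIF3a 4, 8.0% beside 26%. A peak in all 6 lists was found for 4 MRP genes, 8.0% beside 25.2% of all names. These were MRPL30, MRPL4, MRPL43 and MRPS16.

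**Figure D2:**
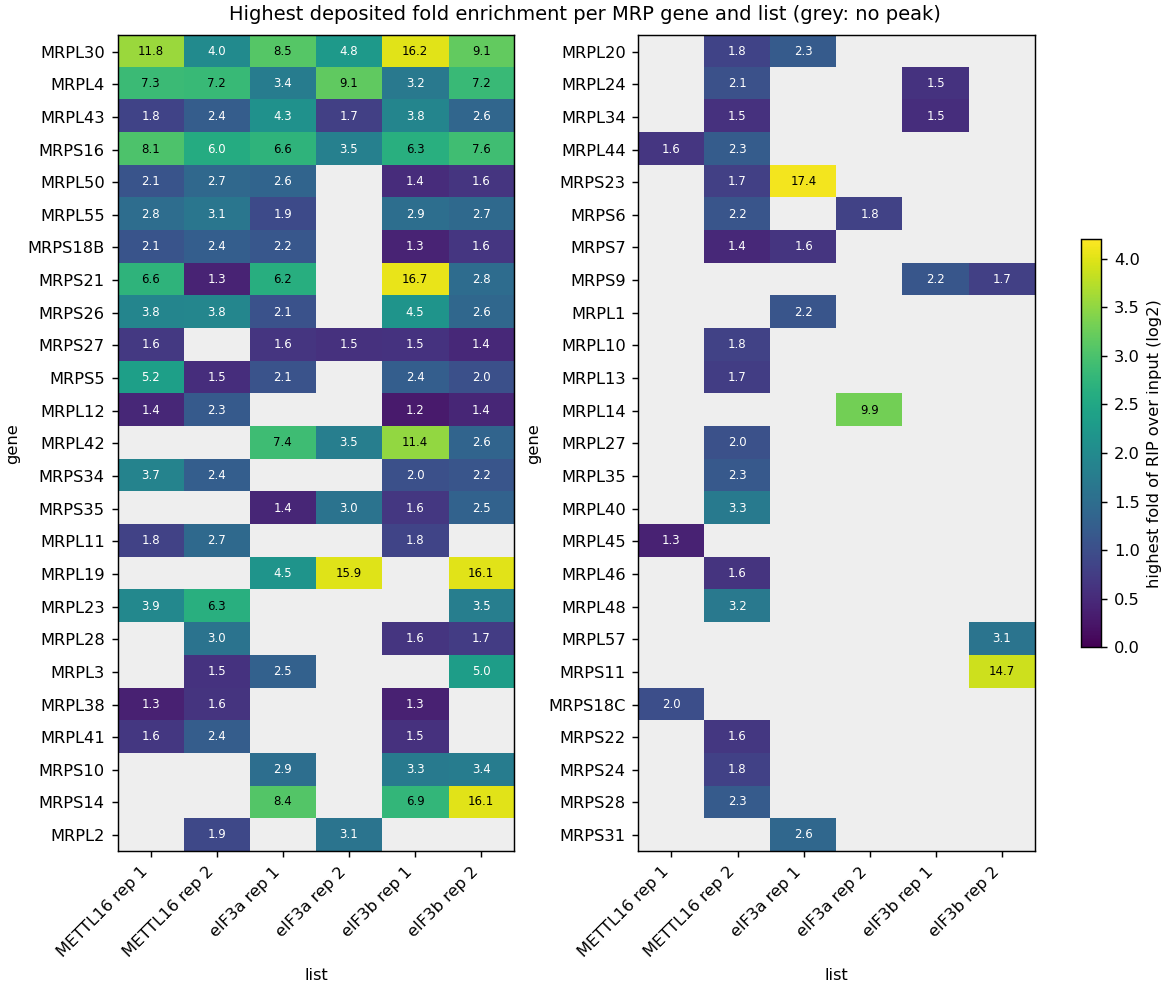
Highest deposited fold of RIP over input (colour on a log2 scale, printed as a linear fold) for each of the 50 MRP genes in each of the 6 lists, sorted by the number of lists with a peak, with grey for no peak. MRPL30, MRPL4, MRPL43 and MRPS16 have values in all 6 columns, and the right panel holds a run of genes with a peak in METTL16 replicate 2 alone.

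MRPL30, a large subunit protein with a bacterial counterpart, had the strongest eIF3b signal of the MRP genes by mean log2 fold. The highest folds, given here and below for replicate 1 and then replicate 2, were 11.8 and 4.02 for METTL16, 8.54 and 4.82 for eIF3a and 16 and 9.13 for eIF3b. The eIF3b mean was 3.60 ± 0.59 on the log2 scale (SD, n = 2). The folds of METTL16 and eIF3b overlapped between proteins, and each protein had its higher value in replicate 1. In every list the peak with that fold covered the same 210 bases of the 3′ UTR, chr2:99195917-99196126 on GRCh38, plus strand, in exon 6, centred 319 bases after the last coding base. A weaker peak, with folds between 2.27 and 5.78, covered chr2:99196335-99196484 in all 6 lists, 707 bases after the last coding base.

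MRPS16, a small subunit protein with a bacterial counterpart in which inherited defects impair oxidative phosphorylation, showed a similar arrangement. Its highest fold was 8.14 and 6.0 in METTL16, 6.61 and 3.54 in eIF3a and 6.27 and 7.56 in eIF3b, so the 3 proteins overlapped. The 6.27 of eIF3b replicate 1 came from a second peak closer to the coding sequence, and the other 5 values from the peak near the 3′ end. A stretch of 270 bases near the 3′ end of its mRNA, chr10:73248873-73249142, minus strand, lay under a peak in all 6 lists, centred 1848 bases after the last coding base. All 6 of these peaks held ACAGAGA, the letters around the U6 adenosine known to be methylated by METTL16, searched on the transcript strand only. They share 1 site, methylation was not measured, and a match of these letters alone does not show a METTL16 site. MRPS26 held it under its 3′ UTR peaks of METTL16 replicate 2, eIF3a replicate 1 and eIF3b replicate 2. No other MRP peak held these letters, so 9 of 194 did. Of all peaks 3.27% to 5.36% per list held them, and 4.58% to 6.0% of those 270 to 450 bases wide. Both sites are shown because they are the only copies under MRP peaks, 30 bases each with ACAGAGA in capitals. The first lay at chr10:73248938-73248967, minus strand, and the second at chr20:3048099-3048128, plus strand.
MRPS16: cagcctgggtgACAGAGAaaagaaaaagaa
MRPS26: gtttccatctcACAGAGAatcagacagggc

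The peaks of MRPL30 and MRPS16 lay in part on repeated sequence. Every stretch of 25 bases under an MRP peak was counted in the genome on both strands, and the count was added after other values had been seen. In the MRPL30 peak of eIF3b replicate 1 with a fold of 16, 47.2% of the stretches occurred over 100 times, 1 of them 256556 times. In METTL16 replicate 2 the figure for the matching peak was 42.5%. In the MRPS16 peak near the 3′ end the share was between 1.22% and 11.2%, and in its second peak, centred 636 to 755 bases after the last coding base in 5 lists, between 35.1% and 54.4%. Whether the ACAGAGA of the first of these peaks lies in repeated sequence was not examined. In all, 42 of 194 MRP peaks on 9 genes, 21.6%, held at least 1 such stretch, beside 7.07% of 5095 peaks read as 1 in every 20 of each list. In 3′ UTRs 39 of 90 MRP peaks held such a stretch, beside 18.55% of the 3′ UTR peaks among the 5095. MRPL30 carried 12 of the 42 and MRPS16 11, counted over several lists. The 42 had a median fold of 4.55 and the other MRP peaks of 2.08. How reads that match several places were handled is not given in the sources used here, and its part in these folds was not tested. Without these peaks METTL16 bound 13 MRP genes, eIF3a 5 and eIF3b 13, and MRPL43 was the only gene left in all 6 lists.

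**Figure D3:**
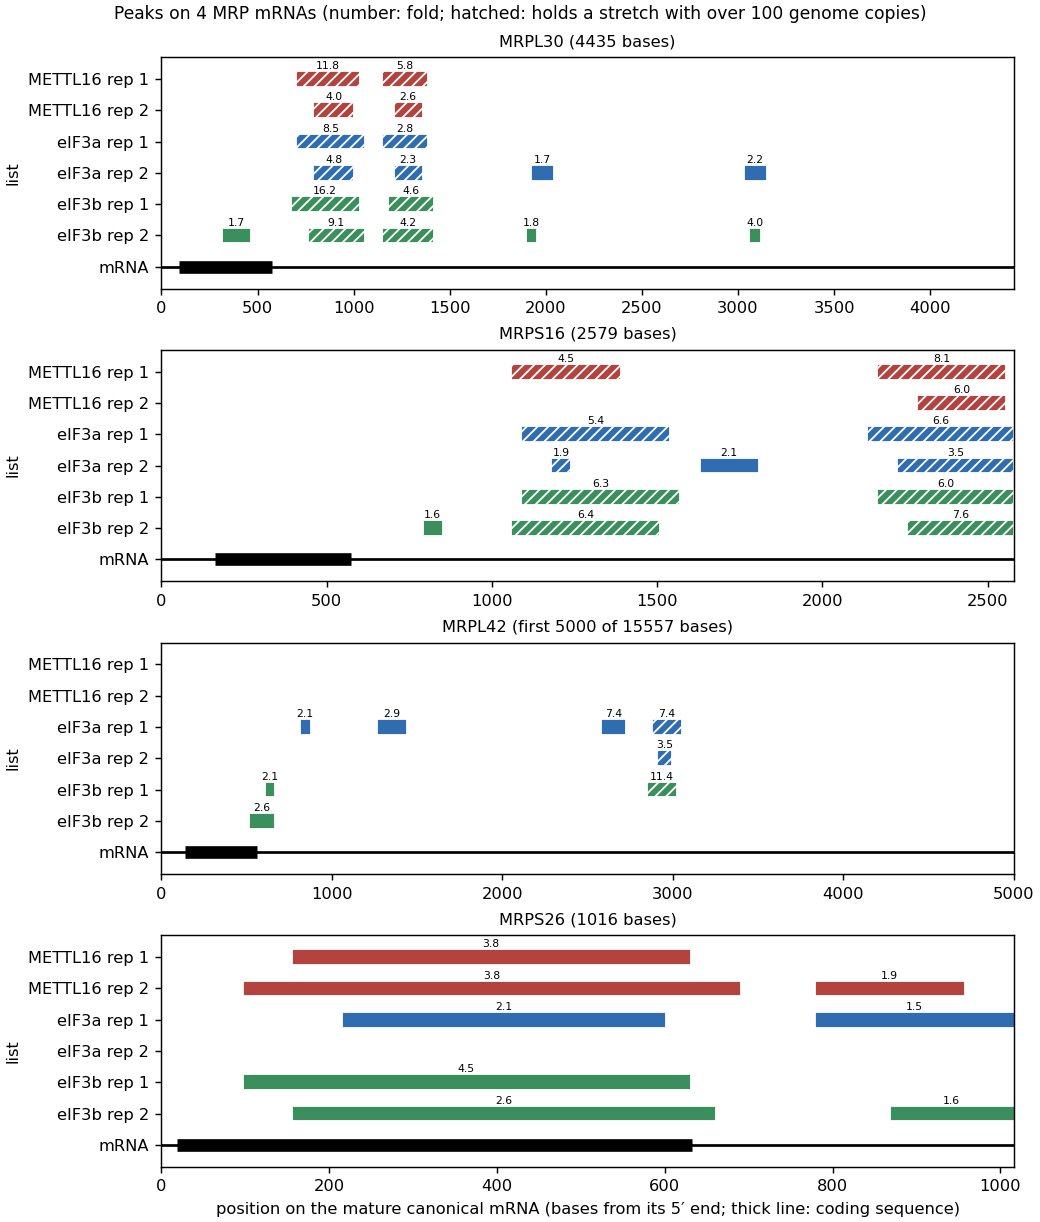
Peaks of the 6 lists on the mature mRNAs of MRPL30, MRPS16, MRPL42 and MRPS26, as positions in bases from the 5′ end, with the coding sequence as a thick line, the deposited fold above each peak, and hatching for peaks that hold a 25-base stretch with over 100 copies in the genome. The strongest MRPL30 peaks of all lists stand at 1 place after the coding sequence, those of MRPS16 near the 3′ end in every list but eIF3b replicate 1, and those of MRPS26 along the coding sequence with no hatching.

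MRPL4, a large subunit protein with a bacterial counterpart, had folds of 7.28 and 7.15 in METTL16, 3.38 and 9.08 in eIF3a and 3.25 and 7.18 in eIF3b. It ranked first among the 17 genes bound by METTL16, at a mean log2 fold of 2.85 ± 0.02 (SD, n = 2). All 6 lists had a peak over 60 bases, chr19:10258814-10258873, plus strand, which belong to the 3′ UTR of an alternative transcript and not to the canonical mRNA. The 3.25 of eIF3b replicate 1 came from a coding peak, and its peak over these 60 bases had a fold of 3.16. In 5 of the 6 peaks over it every 25-base stretch was single copy. Some MRPL4 peaks also touch exons of LIMASI, on the opposite strand.

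MRPL43, a large subunit protein found in mitochondria only, had lower folds, 1.80 and 2.36 in METTL16, 4.34 and 1.73 in eIF3a and 3.78 and 2.61 in eIF3b. Peaks in 5 lists, all but METTL16 replicate 1, shared 240 bases of an alternative 3′ exon, chr10:100978897-100979136, minus strand. This exon overlaps SEMA4G on the opposite strand. Peaks of 15 MRP genes touched exons of another annotated gene, on either strand, and whether peak calling used the strand of the reads is not given in the sources used here.

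A further 7 MRP genes had peaks in 5 lists, and 6 of them, MRPL50, MRPL55, MRPS18B, MRPS21, MRPS26 and MRPS5, were missed by eIF3a replicate 2. MRPS27 was missed by METTL16 replicate 2. MRPS26, a small subunit protein found in mitochondria only, had folds of 3.75 and 3.81 in METTL16, 2.08 in eIF3a replicate 1 and 4.53 and 2.63 in eIF3b. Its main peaks ran over 4 exons and most of the coding sequence, with widths from 387 to 594 exonic bases, and every stretch of them was single copy. The longer runs of coding bases common to all 5 lists are shown because no other MRP gene had as much coding sequence under peaks of 5 lists. They lay in exons 2, 3 and 4 of MRPS26 at chr20:3046373-3046519, chr20:3046614-3046737 and chr20:3047735-3047835, plus strand. Their GC content was 70.1%, 71% and 55.4%.
MRPS26 exon 2: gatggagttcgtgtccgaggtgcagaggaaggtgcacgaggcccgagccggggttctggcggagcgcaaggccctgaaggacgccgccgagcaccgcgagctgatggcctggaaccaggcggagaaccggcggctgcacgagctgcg
MRPS26 exon 3: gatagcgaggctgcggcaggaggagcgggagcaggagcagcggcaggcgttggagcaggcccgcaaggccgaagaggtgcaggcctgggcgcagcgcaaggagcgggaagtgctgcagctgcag
MRPS26 exon 4: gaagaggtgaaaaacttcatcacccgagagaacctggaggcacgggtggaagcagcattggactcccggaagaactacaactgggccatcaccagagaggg

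MRPS27, a small subunit protein with pentatricopeptide repeats, had low folds throughout. All 5 lists shared 90 bases of its exon 10, chr5:72223725-72223814, minus strand. The peaks over these bases had folds of 1.62 in METTL16 replicate 1, 1.29 and 1.26 in eIF3a and 1.52 and 1.40 in eIF3b, and 3′ UTR peaks of both eIF3a lists and eIF3b replicate 1 reached 1.56, 1.52 and 1.54. MRPL50, a large subunit protein found in mitochondria only, had folds between 1.44 and 2.68, with 30 bases just after the start codon, chr9:101398550-101398579, minus strand, under a peak in all 5 lists. Both are shown because they too were coding sequence under a peak in 5 lists.
MRPS27 exon 10: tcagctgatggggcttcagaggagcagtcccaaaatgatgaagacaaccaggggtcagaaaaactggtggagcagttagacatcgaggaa
MRPL50 exon 1: ctgtgtcgggcattaccagaagagtcttca

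MRPL55, a large subunit protein, had peaks in all 5 lists over 57 bases of its 5′ UTR, chr1:228108262-228108318, minus strand. Its highest folds were 2.84 and 3.12 in METTL16, 1.93 in eIF3a replicate 1 and 2.86 and 2.70 in eIF3b. MRPS5, a small subunit protein with a bacterial counterpart, had a highest fold of 5.19 in METTL16 replicate 1 on its first exon and of 1.47 in replicate 2 beside the stop codon. METTL16 replicate 1 also had a peak with a fold of 1.44 in exon 12, near that of replicate 2. No METTL16 peak of MRPS5 overlapped between replicates. Its folds were 2.10 in eIF3a replicate 1 and 2.40 and 2.04 in eIF3b. MRPS21, a small subunit protein with a bacterial counterpart, had unequal replicates, with folds of 6.62 and 1.33 in METTL16, 6.20 in eIF3a replicate 1 and 16.7 and 2.81 in eIF3b. The peaks with these folds in lists other than METTL16 replicate 2 lay on repeated sequence of the 3′ UTR, where 32.4% to 41.1% of the stretches occurred over 100 times, and the METTL16 replicate 2 peak was coding. A weaker 3′ UTR peak of eIF3a replicate 1, with a fold of 1.76, was on single-copy sequence.

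The 3 MRPS18 paralogues, which arose from 1 ancestral gene, differed in how often they were listed. MRPS18B had peaks in 5 lists, with folds of 2.12 and 2.40 in METTL16, 2.21 in eIF3a replicate 1 and 1.33 and 1.59 in eIF3b. MRPS18C had 1 peak, with a fold of 2.02 in METTL16 replicate 1, and MRPS18A had none. Of the 7 MRPS18B peaks 6 held repeated stretches of the kind counted above, which made up 7.27% to 19.4% of each. The MRPS18C peak held none. Without those 6 peaks MRPS18B was left in eIF3b replicate 2 alone, so it no longer differed from MRPS18C in number of lists. MRPS34, a small subunit protein found in mitochondria only, had no eIF3a peak, with folds of 3.67 and 2.38 in METTL16 and 2.04 and 2.16 in eIF3b. Its 4 lists shared 88 coding bases of exon 1, chr16:1772964-1773051, minus strand, shown as the case with METTL16 and eIF3b peaks at 1 place and none of eIF3a. The peaks also touch exons of EME2 on the opposite strand.
MRPS34 exon 1: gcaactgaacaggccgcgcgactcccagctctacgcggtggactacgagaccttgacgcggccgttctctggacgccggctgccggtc

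Some MRP genes were listed for METTL16 or for the eIF3 subunits alone. A METTL16 list and no eIF3 list held 13 MRP genes, 26%, beside 5.43% of all names, and an eIF3 list and no METTL16 list held 11, 22%, beside 30.2%. Of the 13 genes 10 came from METTL16 replicate 2 alone, 20% of MRP genes beside 3.8% of all names. These 10 were MRPL10, MRPL13, MRPL27, MRPL35, MRPL40, MRPL46, MRPL48, MRPS22, MRPS24 and MRPS28, named after their values were seen. Each had 1 peak, all 10 were in coding sequence, 9 ran over several exons, and the folds were between 1.55 and 3.32 with a median of 1.91. Over all 411 gene names found in METTL16 replicate 2 alone the median fold was 2.86, 82.0% of peaks were coding and 55.1% had several blocks.

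MRPL44, a large subunit protein related to ribonuclease III, was the only MRP gene bound by METTL16 with no eIF3 peak. Its folds were 1.58 and 2.32, and both peaks lay in exon 1, 123 and 94 bases after the first coding base. MRPS9, a small subunit protein with a bacterial counterpart, was the only one bound by eIF3b with no peak of the other 2 proteins, with folds of 2.18 and 1.74 at different places of its coding sequence. No MRP gene was bound by eIF3a alone. Over all names the shares bound by 1 protein with no peak of the others were 0.905% for METTL16, 1.57% for eIF3b and 1.13% for eIF3a, so counts of 1, 1 and 0 among 50 genes were near the background. MRPL42 and MRPS35 had peaks in all 4 eIF3 lists and in no METTL16 list, 4.0% of MRP genes beside 4.12% of all names.

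MRPL42, a large subunit protein found in mitochondria only, has a canonical mRNA of 15557 bases, almost all of it 3′ UTR. Its highest folds were 7.44 and 3.47 in eIF3a and 11.4 and 2.56 in eIF3b. Both eIF3a lists and eIF3b replicate 1 shared 90 bases, chr12:93503563-93503652, plus strand, 2389 bases after the last coding base, on partly repeated sequence. A neighbouring eIF3a replicate 1 peak on single-copy sequence also had a fold of 7.44. The eIF3b replicate 2 peak lay elsewhere, across the last coding base. MRPS35, a small subunit protein found in mitochondria only, had folds of 1.37 and 3.04 in eIF3a and 1.61 and 2.5 in eIF3b, with 60 coding bases shared by 3 of the lists and a 3′ UTR peak in eIF3a replicate 2.

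The highest folds of the eIF3 lists came largely from 3′ UTRs. MRPL19, a large subunit protein with a bacterial counterpart and a 3′ UTR of 6924 bases, ranked first of the 8 genes bound by eIF3a, with folds of 4.49 and 15.9 and a mean log2 fold of 3.08 ± 1.29 (SD, n = 2). The peaks behind these folds lay 2008 and 4572 bases after the last coding base, so the replicates marked different places. In eIF3b it had a peak in replicate 2 alone, with a fold of 16. MRPS14, a small subunit protein with a bacterial counterpart, had folds of 8.43 in eIF3a replicate 1 and of 6.86 and 16 in eIF3b, and its 3 lists shared 61 bases of single-copy 3′ UTR, chr1:175013315-175013375, minus strand. MRPS23 had the highest fold of the 194 MRP peaks, 17.4, in a 60-base peak of eIF3a replicate 1 that had no counterpart in the other lists. Several of these high folds were among the less supported peaks, with a log10 p-value of -3.37 for this MRPS23 peak and of -3.6 and -3.45 for the MRPL19 peaks with folds of 15.9 and 16, against -263 for the strongest MRPL30 peak and a median of -6.54 over MRP peaks. MRPL23, a large subunit protein at the polypeptide exit, was the fourth of the genes bound by METTL16, with folds of 3.89 and 6.28 around the stop codon and of 3.46 in eIF3b replicate 2.

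By region, METTL16 peaks on MRP genes were mostly coding and eIF3a peaks mostly in 3′ UTRs. A peak was assigned by its centre. In METTL16, 14 of 26 and 36 of 43 peaks were in coding sequence, 53.8% and 83.7%, beside 60.9% and 68.6% of all peaks of these lists. In eIF3a, 11 of 36 and 4 of 19 were coding, 30.6% and 21.1% beside 56.7% and 57.9%. In eIF3b the counts were 19 of 34 and 12 of 36, 55.9% and 33.3% beside 60.9% and 57.5%.

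The 3′ UTR held 10 and 6 METTL16 peaks, 38.5% and 14.0% beside 32.0% and 24% of all peaks. It held 23 and 15 eIF3a peaks, 63.9% and 78.9% beside 38.1% and 38.5%, and 13 and 23 eIF3b peaks, 38.2% and 63.9% beside 30.3% and 36.1%. The METTL16 and eIF3a lists did not overlap in these shares, whereas eIF3b replicate 1 lay with METTL16 and replicate 2 with eIF3a. GC content differed between the lists as well, since the median over MRP peaks was 58.7% and 55.0% in METTL16, 49.5% and 50% in eIF3a, and 55.7% and 47.3% in eIF3b, and its part in the regional shares was not tested. Without the peaks on repeated stretches the mean 3′ UTR share was 14.4% in place of 26.2% for METTL16, 62.6% in place of 71.4% for eIF3a and 36.4% in place of 51.1% for eIF3b, and the mean coding share of eIF3b was 58.0% in place of 44.6%. The 5′ UTR held at most 2 MRP peaks per list, 0% to 7.69%, beside 3.31% to 8.52% of all peaks.

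Strong MRP peaks were mostly 3′ UTR peaks in every list except METTL16 replicate 2, where 2 of 5 were and 3 were coding. Of MRP peaks with a fold of at least 4, 8 of 12 were in the 3′ UTR for METTL16, 13 of 14 for eIF3a and 17 of 18 for eIF3b, that is 66.7%, 92.9% and 94.4%. Counts by protein in this paragraph pool both replicates, so a site found in both is counted in each. This holds for MRPL30 in all 3 proteins and for MRPS16 in METTL16 and eIF3b. The shares thus describe peaks on few genes and not separate genes. Of these 38 strong 3′ UTR peaks 24 held a stretch with over 100 genome copies, 7 of 8 for METTL16, 6 of 13 for eIF3a and 11 of 17 for eIF3b, and the 24 lay on MRPL30, MRPL4, MRPL42, MRPS16 and MRPS21. Among all peaks of that strength the shares were 33.6%, 42.7% and 39.5%. Of MRP peaks under that fold, 14.0%, 61.0% and 36.5% were in the 3′ UTR, beside 24.5%, 36.2% and 29.7% of all such peaks. Distance after the coding sequence was taken only for 3′ UTR peaks centred on the canonical transcript. The 14, 33 and 31 such MRP peaks of METTL16, eIF3a and eIF3b lay closer than others, at medians of 353, 790 and 722 bases. Over all such peaks the medians were 911, 1224 and 1063 bases. The 3′ UTRs of annotated MRP genes were shorter, with a median of 467.5 bases against 1022. Of the 194 peaks 19 were centred off the canonical transcript, 4.65% to 15.8% per list, beside 1.05% to 1.63% of all peaks.

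**Figure D4:**
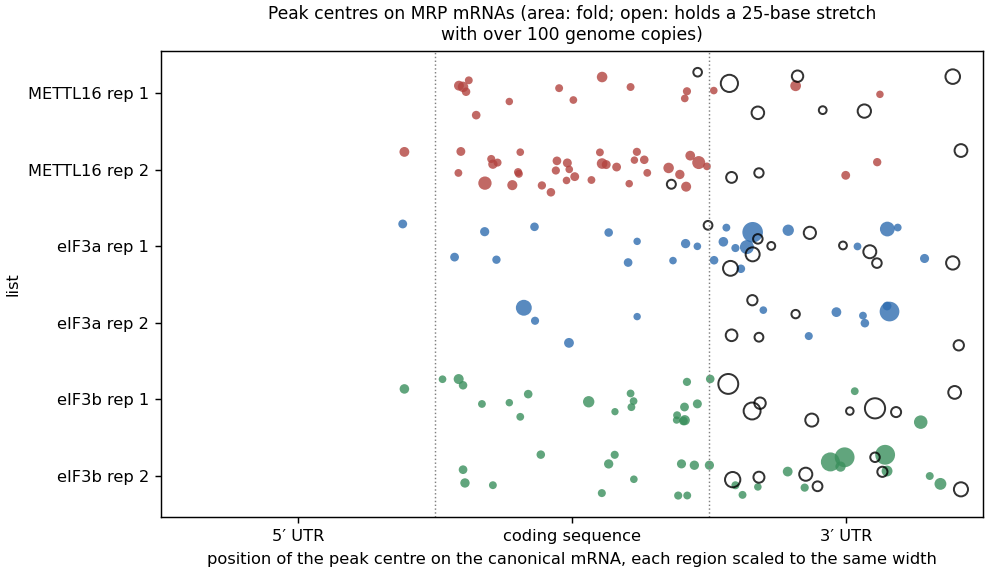
Centres of MRP peaks along the canonical mRNA, with the 5′ UTR, coding sequence and 3′ UTR each scaled to the same width, 1 row per list, dot area by fold and open circles for peaks that hold a 25-base stretch with over 100 genome copies. METTL16 replicate 2 fills the coding sequence, the eIF3a rows lie mainly in the 3′ UTR, and most open circles are in the 3′ UTR.

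MRP peaks were about as wide as other peaks. Median exonic widths were 176.5 and 209 bases in METTL16, 178.5 and 150 in eIF3a and 178 in both eIF3b lists, beside 180 and 180, 180 and 210, and 210 and 181 over all peaks. The narrowest had 59 to 61 bases in every list. The spans with introns differed more, since METTL16 replicate 2 had a median span of 1200 bases, against 253 in replicate 1 and 150 to 210 in the 4 eIF3 lists. Of its 43 peaks 29, or 67.4%, ran over several blocks, beside 45.7% of all its peaks, whereas 15.8% to 30.8% of MRP peaks did so in the other lists, beside 37.9% to 44.5%.

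The widest peak of each list fell on 5 genes. It was MRPS26 with 475 exonic bases in METTL16 replicate 1 and MRPL28, a large subunit protein, with 630 bases over 4 exons in replicate 2. In eIF3a replicate 1 and in eIF3b replicate 1 it was the same 598 bases of MRPL43. In eIF3a replicate 2 it was MRPL14, a large subunit protein with a bacterial counterpart, with 537 bases over a span of 13621 and a fold of 9.93. In eIF3b replicate 2 it was MRPS14, with 566 bases and a fold of 16.

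**Figure D5:**
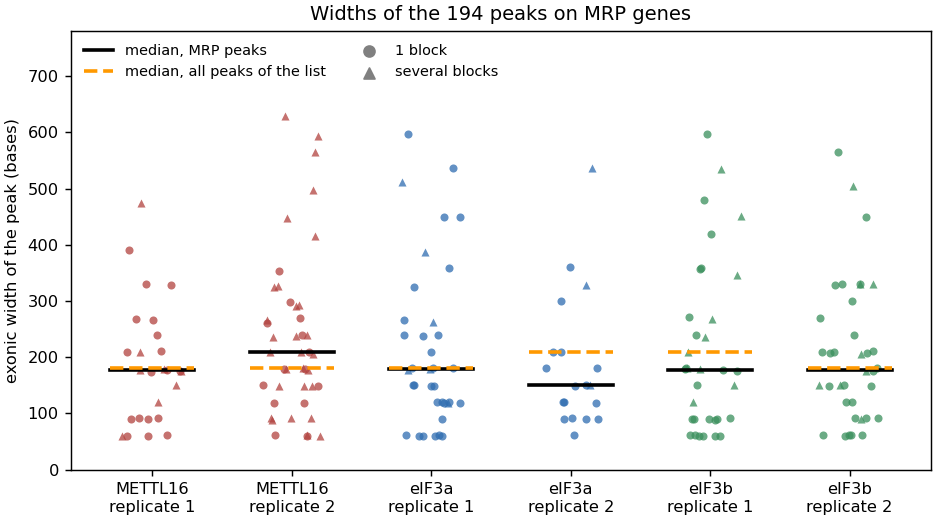
Exonic width in bases of each of the 194 peaks on MRP genes by list, with circles for peaks of 1 block and triangles for several blocks, a black line for the MRP median and a dashed line for the median over all peaks of the list. The medians lie between 150 and 209 bases, and METTL16 replicate 2 holds the most triangles.

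MRP peaks were weaker and fewer per gene than peaks in general. The median fold was 2.12 and 2.26 in METTL16, 2.28 and 2.23 in eIF3a and 2.22 and 2.62 in eIF3b, lower in each list than over all its peaks, where it was 3.09, 3.40, 2.98, 2.73, 3.20 and 2.94. A fold under 2 was found for 30.6% to 42.3% of MRP peaks per list, beside 15.0% to 27.3% of all peaks. An MRP gene with a peak carried 1.30 and 1.19 peaks in METTL16, 1.64 and 1.73 in eIF3a and 1.42 and 1.50 in eIF3b, against 2.07 to 2.66 per gene over all names. The MRP genes with a peak also had shorter mRNAs, with a median of 1204 to 1829 bases per list. Over all protein coding genes with a peak it was 3344 to 4438 bases. Peaks per gene were not compared within length classes, and the part of length in these counts was not tested.

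To see whether the proteins marked the same bases of MRP transcripts, the share of peaks of 1 list that overlapped a peak of another by at least 1 base was taken. METTL16 peaks on MRP genes overlapped eIF3b peaks in 55.1% ± 21.7 and eIF3a peaks in 31.2% ± 18.3 (SD over 4 pairs of lists that share lists), beside 69.4% and 51.5% of all METTL16 peaks. METTL16 replicate 1 overlapped eIF3b replicate 1 in 21 of 26 MRP peaks, 80.8% beside 82.9% of all its peaks, whereas METTL16 replicate 2 did so in 17 of 43, 39.5% beside 69.1%. eIF3b peaks overlapped METTL16 peaks in 50.2% ± 8.48, beside 41.1% of all, and eIF3a peaks overlapped eIF3b peaks in 55.5% ± 3.29, beside 60.5%. Between replicates, 61.5% of METTL16 replicate 1 peaks overlapped replicate 2, beside 56.2% of all, and 37.2% the reverse way, beside 54.7%. At least 1 base lay under a peak in each of their lists for 3 of the 4 genes in 6 lists, 4 of the 7 in 5 lists, 1 of the 4 in 4 lists, 6 of the 9 in 3 lists and 4 of the 9 in 2 lists.

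By symbol, the shares of MRPL and MRPS genes with a peak had overlapping intervals, with 30 of 49 annotated, 61.2% (95% Wilson interval 47.2% to 73.6%), and 20 of 29, 69.0% (50.8% to 82.7%). The symbols follow the subunits mainly but not always, so these are not exact subunit shares. METTL16 replicate 2 had peaks on 24 of the 30 MRPL members and 12 of the 20 MRPS members, and eIF3a replicate 1 on 10 and 12. METTL16 bound 11 MRPL and 6 MRPS genes, eIF3a 5 and 3, and eIF3b 8 and 11. Proteins named for a bacterial counterpart, told by RefSeq synonyms in a grouping made after other values were seen, had peaks for 29 of 44 genes. Those named as mitochondrial only had peaks for 19 of 31. This grouping follows names and not descent, since MRPS18A and MRPS18B fell in the second class and their paralogue MRPS18C in the first. The synonyms gave no class for 3 genes. The intervals of these shares overlapped, at 51.1% to 78.1% and 43.8% to 76.3%.

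Other genes of mitochondrial translation were listed too. Of 6 mitoribosome or mitoribosome-associated proteins with other symbols 5 had a peak in some list, beside 10725 of 20033 protein coding genes. DAP3, a GTP-binding protein of the small subunit, had one in all 6 lists, with folds from 1.42 to 2.63. CHCHD1 had none. Of 28 genes for assembly of the mitoribosome and modification of its RNA, METTL16 bound 8, eIF3a 5 and eIF3b 14. Of all 20033 protein coding genes METTL16 bound 22.9%, eIF3a 22.8% and eIF3b 32.2%, and these small lists were not tested against that. GTPBP10, a GTPase of large subunit assembly, had folds of 30.5 in METTL16 replicate 1, 71.9 and 16.5 in eIF3a and 30.2 and 39.6 in eIF3b. Of 16 translation factor genes, METTL16 bound 1, eIF3a 3 and eIF3b 6, and of 10 genes for mitochondrial transcription and DNA maintenance, 2, 2 and 5. POLRMT, the mitochondrial RNA polymerase, and POLG, the catalytic subunit of the DNA polymerase, had peaks in all 6 lists.

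The 28 annotated MRP genes with no peak under their symbol had a median mRNA length of 1137 bases, against 1378 bases for the 50 with a peak. They were MRPL9, MRPL15, MRPL16, MRPL17, MRPL18, MRPL21, MRPL22, MRPL32, MRPL33, MRPL36, MRPL37, MRPL39, MRPL47, MRPL49, MRPL51, MRPL52, MRPL53, MRPL54, MRPL58, MRPS2, MRPS12, MRPS15, MRPS17, MRPS18A, MRPS25, MRPS30, MRPS33 and MRPS36. MRPL58 is listed as ICT1. Absence from a list does not show that the RNA was unbound. By length of the 3′ UTR, 25 of 41 genes with under 500 bases had a peak, 13 of 20 with 500 bases up to 1500 and 12 of 17 with 1500 or more, and eIF3a bound 2, 1 and 5 of them. Over all protein coding genes, eIF3a bound 9.82%, 21.5% and 34.3% in these classes.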

How the data were processed

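Per the study's methods and the submitters' processing notes, reads were aligned by the authors using STAR and the GRCh38 genome, and exomePeak compared each RIP with input to find peaks. Versions, annotation and the pairing of RIP with input are not given in the sources used here. For each peak the deposited lists hold exonic blocks, a gene name, a p-value, a log10 value of it kept as a score, and a fold, the ratio of RIP to input. The largest p-value of an MRP peak was 0.0076. Inputs were not analysed here as libraries.

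Lists were grouped by the labels. Peaks were placed on GENCODE release 44, on the canonical transcript first, and 50% of bases on exons of the named gene were required, which 99.1% to 99.3% of peaks per list met. UTRs were counted from the coding sequence without its stop codon. Of 10830 names, 10325 matched a current symbol, 443 an older one through RefSeq (GRCh38.p14), and 62 none. Sequences were read from the GRCh38 genome. Functions were tested on simulated peaks. Python 3.11.15 packages pandas and statsmodels were used. The members, gene lists and named-gene rule (members in all 6 lists, the 5 with the highest mean log2 fold per protein, members of 1 protein or of eIF3 alone, members with no peak, the widest peak per list, and the MRPS18 paralogues) were chosen with earlier results of these data known, and other genes were named after their values were seen. One marker of other cell types is not reported here. No statistical test was run. Alternatives were a fold of at least 4, the 5000 peaks with the smallest p-value, other backgrounds, either replicate, each replicate left out, base-wise regions, the highest peak per gene, genomic span, 50% overlap and, added later, canonical transcripts only and no repeated stretches.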

Additional observations from a re-analysis of the deposited data

How the results depend on the processing

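No paired analysis was possible because no result comes from a test. Of 123 alternative values for 30 results, 77 moved by less than the spread between replicates (counts by less than 1.5 times), 43 moved by more and 3 turned sign, and the causes were not tested. For regional shares, widths and folds, leaving out 1 of 2 replicates cannot move the mean by more than their SD. Those alternatives are among the 77 by construction and do not show stability. The share of MRP genes bound minus that over all names was negative for each protein. Taken over annotated genes it turned to 6.09, 0.61 and 5.66 percentage points for METTL16, eIF3a and eIF3b within classes of transcript length, and against all protein coding genes without classes it was -1.09, -12.5 and -7.83 in the same order, in place of -8.59, -26.4 and -21.9 over all names. With a fold of at least 4, the mean number of genes with a peak was 4.5, 6.0 and 6.5 in the same order and 3, 2 and 3 were bound, the coding shares were 30%, 12.5% and 6.25%, the 3′ UTR shares 62.9%, 87.5% and 93.8%, and the median widths 283.5, 238.8 and 291.5 bases. With the 5000 peaks of smallest p-value per list, the means were 15.0, 6.0 and 6.5 genes and 8, 2 and 5 were bound. With a peak in either replicate, 39, 25 and 29 were bound. Leaving out each replicate in turn gave 20 to 36 bound genes for METTL16 and 11 to 22 for eIF3a. Counted by bases, the eIF3a 3′ UTR share was 55.0%. As genomic span, the width was 726.5 bases for METTL16 and 201.5 for eIF3b, and for the highest peak per gene it was 187.2 for eIF3a and 178.5 for eIF3b, with an eIF3a fold of 3.04. Both eIF3b replicates had a median width of 178 bases, so any change of it, even that to 178.5, is among the 43. With 50% overlap, 50.7% of eIF3a peaks lay on eIF3b peaks and 41.5% of eIF3b peaks on METTL16 peaks. Without the peaks on repeated stretches, chosen after seeing the data, the median fold was 1.94 for METTL16 and 2.03 for eIF3a, eIF3a bound 5 genes and its coding share was 33.5%, and the 3′ UTR shares were 14.4% for METTL16 and 36.4% for eIF3b. Read depth is unknown, so peaks missing from a list may be undetected at its depth.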
